A study of Mus musculus with 4 samples.

Results

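The fragments described here are small RNA reads of the mouse mitochondrial control region whose last listed base is base 95, the final base of the stretch to which the reads were aligned. They were chosen by position alone: every fragment with its end at base 95 is a member, whatever its count. There are 43 of them among 1066 distinct fragments of the stretch, and they hold 2513 of 12568 reads. All share the same last base and differ only in where they begin, so they form a ladder of 5' ends. Each start is called a rung here.

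The reads come from MLE12 cells, a mouse lung epithelial line that was transformed by a viral large T antigen expressed in the lung. Cells given cigarette smoke extract (CSE, 10% for 10 h, smoke bubbled through serum-free medium) are compared with untreated cells, all at passage 3, with 2 libraries for each group and the same line, medium and small RNA preparation in both. Library names (CSE 3, CSE 4, untreated 1, untreated 2) follow the numbers in the authors' table titles. The labels call the replicates biological. The tables hold reads of a single stretch and no marker genes, so the identity of the cells was not checked.

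The mitochondrial control region is the main noncoding part of the mitochondrial genome. It carries the promoters from which both strands are transcribed, and RNA made from the light-strand promoter can serve as primer for replication of the heavy strand. Conserved sequence blocks lie downstream of that promoter, and transcription often ends at them in vertebrate mitochondria. The stretch is 95 nt of chromosome MT in the mouse mitochondrial reference sequence that the table titles name. Of 37 mitochondrial genes in GENCODE M21, 0 overlap it, and 693 nt separate its lower end from mt-Tp, the proline tRNA gene, which ends at 15422.

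The stretch is printed 5' to 3' as the reads list it, in DNA letters, with bases 26 to 95 in capitals, the part that the longest member covers.
Stretch, bases 1 to 95: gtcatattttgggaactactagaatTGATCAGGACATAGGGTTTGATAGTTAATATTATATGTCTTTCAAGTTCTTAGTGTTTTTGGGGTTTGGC
Base 26, where the longest member begins, is 16141 if the tables number along the reference and 16185 if they number against it. Base 55, the most used start, is 16170 or 16156, and base 95 is the upper or the lower end of the stretch. Which direction holds was not settled. As listed, the stretch has 24.2% G and 9.47% C. Among the mitochondrial mRNAs, 0 of 12 on the plus strand have more G than C, and mt-Nd6, the only one on the minus strand, has 28.1% G and 5.97% C.

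The members that carry the results are shown next, since they differ only by the bases in lower case at their 5' ends. Capitals mark bases 68 to 95, the 28 bases that every member shares, with a run of T followed by a run of G.
Fragment 46-95: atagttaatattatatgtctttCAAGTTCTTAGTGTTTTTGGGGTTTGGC
Fragment 47-95: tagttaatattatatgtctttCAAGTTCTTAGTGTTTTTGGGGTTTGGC
Fragment 55-95: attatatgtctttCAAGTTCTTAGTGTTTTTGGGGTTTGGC
Fragment 58-95: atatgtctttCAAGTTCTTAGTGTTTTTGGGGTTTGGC
Fragment 67-95: tCAAGTTCTTAGTGTTTTTGGGGTTTGGC
Fragment 68-95: CAAGTTCTTAGTGTTTTTGGGGTTTGGC
Rungs were ranked in use by their mean share of member reads over the 4 libraries, each library counting alike. The longest member, 26-95, is printed once more with capitals at the first bases of the 10 most used rungs.
Fragment 26-95: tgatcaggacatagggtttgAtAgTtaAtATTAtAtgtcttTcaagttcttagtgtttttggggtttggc
Of these 10 rungs, 9 begin between bases 46 and 60, in the A- and T-rich part of the stretch. Bases 46 to 68 contain 12 T, 7 A, 2 G and 2 C.

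The window of the ladder is set by the listed lengths. The shortest listed read has 28 nt and the longest 70 nt, so a read that ends at base 95 can begin no later than base 68 and no earlier than base 26. Every start in that window was found, 42 of them in CSE 3, 43 in CSE 4, 34 in untreated 1 and 37 in untreated 2. Of the 43 rungs, 33 had reads in every library and 5 had reads in CSE libraries alone. The set was smaller in untreated libraries, so an empty rung says less there: 0 reads allow up to 0.292% of the set in CSE 3 and 0.274% in CSE 4, against 2.03% in untreated 1 and 1.24% in untreated 2 (3 counts, counting error only).

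The tables cannot show where these RNAs really ended. Base 95 is the last base of the stretch, and in the tables it is followed by a second copy of the stretch, not by the bases that follow in the mitochondrial genome. A read that stops there may therefore continue. The protocol in the labels names a 3' adaptor and reverse transcription but no 5' RNA adaptor. RNA 5' ends and places where reverse transcription stopped cannot be told apart in the listed 5' ends.

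The set held 1029 reads in CSE 3 and 1095 in CSE 4, against 148 in untreated 1 and 241 in untreated 2. Listed reads numbered 984 to 5456 per library, and no library totals accompany them. As a share of listed reads the set made up 21.8% of CSE 3 (95% Wilson interval 20.7 to 23.0) and 20.1% of CSE 4 (19.1 to 21.2), against 15.1% of untreated 1 (13.0 to 17.4) and 16.9% of untreated 2 (15.1 to 19.0). Both CSE libraries lay above both untreated ones. The difference of 4.97 percentage points reached the smallest p that 2 against 2 libraries allow (two-sided exact permutation test, p = 0.333). The members therefore enter the comparison of single fragments with a set that was already larger in CSE.

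At the ends just before base 95, which are outside the rule, the numbers were far lower. Reads that end at base 94 made up 3.39% and 2.77% of CSE 3 and CSE 4, against 2.85% and 1.54% of untreated 1 and 2. Reads that end at base 93 made up 0.467% and 0.404% of the CSE libraries, against 0.204% and 0.843% of the untreated ones. In each library, base 95 was by far the most frequent of these ends.

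Most reads of the ladder began in its middle. Rungs 46 to 58, which are 13 of 43, took 56.0% and 55.6% of the set in CSE 3 and CSE 4, against 57.4% and 52.3% in untreated 1 and 2. Rungs 29 to 41, also 13, took 4.08% and 5.94% in the CSE libraries, against 4.05% and 4.56% in the untreated ones. In each of the 4 libraries the first of these bands thus held over 50% of the set and the second under 6%. Rungs 26 to 28, at the long end, took 5.15% and 2.83% in CSE 3 and CSE 4, against 6.08% and 6.22% in untreated 1 and 2. The CSE libraries lay below the untreated ones there, but the Wilson interval of CSE 3 (3.96 to 6.68) takes in both untreated values.

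Split by length, the ladder did not separate the groups. Members over 50 nt, which begin before base 46, made up 17.1% and 14.7% of the set in CSE 3 and CSE 4, against 18.9% and 15.8% in untreated 1 and 2. Members of 31 to 50 nt made up 71.9% and 73.6% in the CSE libraries, against 65.5% and 72.6% in the untreated ones. Members of 28 to 30 nt made up 11.0% and 11.7% in the CSE libraries, against 15.5% and 11.6% in the untreated ones. The groups overlapped in the longest and the shortest class and in the middle class (exact permutation p = 0.667 for each). Medians of member length were 42 and 41 nt in CSE 3 and CSE 4, against 45 and 41 nt in untreated 1 and 2 (exact permutation p = 1). With 2 libraries a group, this does not show that the ladders have the same length profile: the mean share of members of 31 to 50 nt was 72.8% ± 1.20 in CSE and 69.1% ± 5.00 in untreated cells (SD, n = 2 each).

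The most used rung was 55, which begins with A. Fragment 55-95 had 80 and 101 reads in CSE 3 and CSE 4, against 4 and 24 in untreated 1 and 2. Its share of the set was 7.77% and 9.22% in the CSE libraries, against 2.70% and 9.96% in the untreated ones. The untreated libraries lay on either side of the CSE libraries, so the groups overlapped, and its share of listed reads had a log2 ratio of 0.66 ± 0.52 (SE, edgeR's quasi-likelihood test, adjusted p = 0.714). Without untreated 2 that log2 ratio was 2.12, and without untreated 1 it was 0.08.

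Rung 58, the third in use, had close shares in all 4 libraries. Fragment 58-95 had 68 and 80 reads in CSE 3 and CSE 4, against 9 and 18 in untreated 1 and 2. These were 6.61% and 7.31% of the set in the CSE libraries, against 6.08% and 7.47% in the untreated ones. The CSE mean was 6.96% ± 0.493 and the untreated mean 6.77% ± 0.981 (SD, n = 2 each), a difference well within the spread of the untreated pair.

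Rung 46 set the untreated libraries apart from each other. Fragment 46-95 had 42 and 52 reads in CSE 3 and CSE 4, against 22 and 14 in untreated 1 and 2, and it was the largest rung of untreated 1. Its set share was 4.08% and 4.75% in the CSE libraries, against 14.9% (Wilson interval 10.0 to 21.5) and 5.81% (3.49 to 9.51) in the untreated ones. Both untreated values were above both CSE values, and the distance between the untreated libraries exceeded that between untreated 2 and the CSE libraries. Its share of listed reads had a log2 ratio of -0.74 ± 0.48 (SE, edgeR adjusted p = 0.556), and of -0.09 without untreated 1.

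Rung 67, near the short end, had a lower set share in CSE libraries. Fragment 67-95 had 40 and 52 reads in CSE 3 and CSE 4, against 12 and 15 in untreated 1 and 2. The set shares were 3.89% and 4.75%, against 8.11% and 6.22%, without overlap. In share of listed reads the log2 ratio was -0.32 ± 0.48 (SE, edgeR adjusted p = 0.882). Fragment 68-95, which begins 1 base later, held 3.21% and 3.84% of the set in the CSE libraries, against 2.70% and 3.32% in the untreated ones, and these overlap.

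The other 6 of the 10 most used rungs were 48, 50, 53, 56, 57 and 60. Their mean set shares lay between 3.46% and 4.45% in CSE libraries and between 3.76% and 5.12% in untreated libraries. Only rung 50 among these did not overlap, with 3.50% and 3.47% in CSE 3 and CSE 4, against 5.41% and 3.73% in untreated 1 and 2. Summed, the 5 most used rungs (55, 46, 58, 67 and 48) took 26.6% and 29.3% of the set in the CSE libraries, against 37.8% and 33.6% in the untreated ones. The mean of 27.97% ± 1.90 in CSE was thus below that of 35.7% ± 2.99 in untreated cells (SD, n = 2 each), without overlap (exact permutation p = 0.333, the smallest possible). These 5 rungs were picked for their mean share over the same libraries, and the untreated sets are smaller; the part of set size in this difference was not tested.

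Among the 36 members tested one by one, the smallest p belonged to rung 47, the neighbour of rung 46. Fragment 47-95 had 38 and 32 reads in CSE 3 and CSE 4, against 2 and 1 in untreated 1 and 2. This was 3.69% (Wilson interval 2.70 to 5.03) and 2.92% (2.08 to 4.10) of the set in the CSE libraries, against 1.35% (0.371 to 4.79) and 0.415% (0.0733 to 2.31) in the untreated ones. The groups did not overlap, but the interval of untreated 1 takes in both CSE values. With 70 CSE and 3 untreated reads, the pooled ratio of set shares was 4.27, with an exact interval of 1.40 to 21.2 that covers counting error only.

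In share of listed reads, fragment 47-95 had a log2 ratio of 2.43 ± 0.73 (SE) and an adjusted p of 0.0971 in edgeR's quasi-likelihood test, above the threshold of 0.05. The adjusted p was 0.0400 with TMM factors, 0.139 with the set's own reads as library size and 0.996 in DESeq2. Leaving out 1 library, it was 0.0231 without CSE 4, 0.137 without CSE 3, 0.232 without untreated 1 and 0.461 without untreated 2. The log2 ratio was positive each time, between 1.75 without untreated 2 and 3.25 without untreated 1. Whether this fragment passed the test therefore turned on scaling and on single libraries.

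Reads that begin at base 47 existed in untreated cells but seldom reached base 95. Of the reads from this start, 50.7% (38 of 75) and 38.6% (32 of 83) reached base 95 in CSE 3 and CSE 4, against 8.70% (2 of 23) and 7.69% (1 of 13) in untreated 1 and 2. The Wilson intervals were 39.6 to 61.7 and 28.8 to 49.3 in the CSE libraries, against 2.42 to 26.8 and 1.37 to 33.3 in the untreated ones. The interval of CSE 4 meets that of untreated 2. Among reads of both rungs, 46-95 and 47-95, those at 47 were 47.5% and 38.1% in the CSE libraries, against 8.33% and 6.67% in the untreated ones. These last comparisons of rung 47 were chosen after its values were seen.

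Across the whole ladder, set shares did not overlap between the groups at 17 of 43 rungs, 10 with CSE higher and 7 with CSE lower, which is 39.5%. Reads that begin at 26 to 67 and stop before base 95 gave a higher share, 45.2% (19 of 42 starts). The share of rungs that separate the groups was therefore no larger than among the other reads from the same starts. Of the 10 rungs with CSE higher, 5 (29, 32, 35, 39 and 40) had 0 untreated reads and 2 to 15 CSE reads each. Fragment 29-95 had the most of these, 6 and 9 reads in CSE 3 and CSE 4, and its mean CSE set share of 0.703% is below the 0.771% that 0 of 389 untreated reads allow. The remaining rungs with CSE higher were 42, 47, 52, 54 and 61, and those with CSE lower were 26, 27, 36, 37, 46, 50 and 67.

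For the fit over single fragments, 36 of the 43 members had the 10 reads over all libraries that the test required. CSE libraries list more reads, so a member could pass mainly through them. The edgeR test called 0 of the 36 members at an adjusted p under 0.05, and over all 317 fragments tested it called 0 higher and 1 lower in CSE (0.315%). At an unadjusted p under 0.05 there were 2 members, 47-95 and 54-95, both higher in CSE, against 26 of all 317 fragments (8.2%). DESeq2 called 0 members, with 1 at an unadjusted p under 0.05, and 0 of all 317, with 8 (2.52%). With TMM factors edgeR called 1 member, 47-95.

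The members' log2 ratios had a median of 0.50, beside 0.10 for all 317 fragments. TMM factors moved the median of all fragments to 0.35 and that of the members to 0.77. With no minimum on reads, where all 43 members enter, the medians were 0.53 for the members and 0.65 for all 1066 fragments. The members' median was thus above that of all fragments with the minimum and below it without. In share of listed reads the groups did not overlap for 22 of the 36 members (61.1%), 16 of them with CSE higher (44.4%), beside 45.1% and 26.2% of all 317 fragments. The larger set share in CSE given above enters that count, and its part was not tested. No result about single rungs is drawn from it.

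Among the members with the smallest unadjusted p, 54-95 came next after 47-95. Fragment 54-95 had 38 and 46 reads in CSE 3 and CSE 4, against 4 in each untreated library. Its set share was 3.69% and 4.20% in the CSE libraries, against 2.70% and 1.66% in the untreated ones, without overlap. The log2 ratio in share of listed reads was 1.29 ± 0.57 (SE, edgeR adjusted p = 0.455). Fragments 29-95, 52-95 and 63-95 followed, with edgeR adjusted p of 0.455, 0.470 and 0.491. Rung 52 held 3.89% and 4.38% of the set in the CSE libraries, against 3.38% and 2.49% in the untreated ones. Rung 63 held 3.30% and 2.19%, against 0.676% and 2.49%, and overlapped.

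The longest member went the other way. Fragment 26-95 had 14 and 7 reads in CSE 3 and CSE 4, against 3 and 5 in untreated 1 and 2, or 1.36% and 0.639% of the set against 2.03% and 2.07%. Its log2 ratio in share of listed reads was -0.65 ± 0.76 (SE, edgeR adjusted p = 0.870), and it was -1.34 without CSE 3 and -0.16 without CSE 4. Its 70 nt are the most that the tables list, so reads that begin further upstream and reach base 95 are outside what the tables list.

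The libraries' ladders were compared as wholes, as a description over the 43 rungs. The share of reads that would have to move to turn the ladder of one library into that of the other was 13.7% between both CSE libraries and 28.2% between untreated 1 and untreated 2. Between the groups it was 27.7% and 29.2% for untreated 1 with CSE 3 and CSE 4, and 19.0% and 14.9% for untreated 2. By this measure untreated 1, the smallest set, was about as far from its own replicate as from the CSE libraries. Untreated 2 was nearer to the CSE libraries than to untreated 1. Counting error alone makes this share larger for smaller sets, so pairs with untreated 1 cannot be set directly against the CSE pair. The part of set size in these values was not tested. A chi-square test over rungs gave p = 0.00596 for CSE 3 against CSE 4 and p = 0.0984 for the untreated pair, with rungs under 10 reads in a pair summed to 1 cell (35 and 16 cells). This test sets the libraries against counting error alone and takes each read as a molecule of its own, which reads without molecular identifiers need not be, so its p-values may be too small.

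Reads that stop before base 95 were used to ask how often reads from the members' starts reached base 95. Of all reads from starts 26 to 67, 31.9% and 29.1% reached it in CSE 3 and CSE 4, against 23.2% and 24.3% in untreated 1 and 2. The means were 30.5% ± 1.99 in CSE and 23.7% ± 0.792 in untreated cells (SD, n = 2 each), without overlap (exact permutation p = 0.333, the smallest possible). This pooled share also depends on which starts the reads came from. Starts 26 to 38, with the lowest reach, gave 1000 of 3119 and 1245 of 3616 reads in CSE 3 and CSE 4. In untreated 1 and 2 they gave 257 of 622 and 406 of 960. The part of this mix of starts in the difference was not tested. From starts 26 to 38 the shares that reached base 95 were 8.60% and 6.75% in the CSE libraries, against 5.84% and 5.91% in the untreated ones. Every Wilson interval in that band meets the others. From starts 39 to 45 they were 20.2% and 17.8%, against 20% and 16.9%, which overlap.

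The share that reached base 95 was larger from later starts, which need fewer bases. From starts 46 to 54 it was 41.7% and 37.7% in CSE 3 and CSE 4, against 37.9% and 29.2% in untreated 1 and 2, which overlap. From starts 55 to 67 it was 56.9% and 53.05% in the CSE libraries, against 39.6% and 52.0% in the untreated ones, where untreated 1 alone was low. No band but the first and the last kept the groups apart. From start 67, 88.8% of reads over all libraries reached base 95, and a read from there that stops 2 bases earlier would be below the shortest listed length. The rise along the window therefore moves with the length limit, whose part in it was not tested.

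The first base of the members was most often T or A. First base A was held by 12 of 43 rungs and took 37.2% and 40.8% of the set in CSE 3 and CSE 4, against 41.9% and 43.2% in untreated 1 and 2. The CSE mean of 39.02% ± 2.55 was below the untreated mean of 42.5% ± 0.892 (SD, n = 2 each) by 3.50 percentage points, without overlap (exact permutation p = 0.333), but by 1.70 without CSE 3. First base T, at 18 rungs, took 47.5% and 44.7% in the CSE libraries, against 48.0% and 39.8% in the untreated ones. First base G, at 9 rungs, took 9.52% and 7.58%, against 6.76% and 9.96%, and first base C, at 4 rungs, took 5.73% and 6.94%, against 3.38% and 7.05%. The groups overlapped for T, G and C.

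Within the dense part of the ladder, rungs that begin with A were used more per rung than the others. From base 46 on, 7 rungs begin with A, and they averaged 5.37% of the set each over the 4 libraries, between 3.53% and 7.41%. The 12 rungs that begin with T averaged 3.09%, between 1.58% and 5.74%, and the pairs that begin with C and with G averaged 2.73% and 1.59%. Of the A rungs, 5 (48, 52, 55, 58 and 60) lie directly after a T, at a TA step. This was read off the same ladder that it describes and carries no test.

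A starts were also frequent among reads that do not reach base 95. From starts 46 to 60, of which 7 of 15 begin with A, A starts took 57.1% and 60.1% of member reads in CSE 3 and CSE 4, against 63.7% and 66.7% in untreated 1 and 2. Among reads from the same starts that stop before base 95 they took 59.5% and 60.8% in CSE 3 and CSE 4, against 58.7% and 68.5% in untreated 1 and 2. The mean difference, members minus the other reads, was 0.0401 percentage points (SD 3.43 over 4 libraries, exact sign-flip p = 1). Over starts 46 to 67 it was -12.8 points (SD 4.69, lower in 4 of 4 libraries, exact sign-flip p = 0.125, the smallest possible). Starts 61 to 67 hold no A and leave few positions between the shortest listed length and base 95, so the wider window moves with the length limit, whose part was not tested. The narrower window was chosen after seeing the data.

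TA steps took a smaller share of member reads than of the other reads from the same starts, in both windows. From starts 46 to 60, TA steps took 41.7% and 46.3% of member reads in CSE 3 and CSE 4, against 34.1% and 50% in untreated 1 and 2. The other reads from these starts had 46.96% and 49.5% in CSE 3 and CSE 4, against 46.4% and 54.2% in untreated 1 and 2. The difference of -6.24 points (SD 4.12) had the same sign in 4 of 4 libraries, and the exact sign-flip test gave p = 0.125, the smallest it can give. The gap from starts 46 to 60 was widest in untreated 1, the smallest set. Over starts 46 to 67 the difference was -15.03 points (SD 2.99), also lower in 4 of 4 libraries (exact sign-flip p = 0.125). Here too the narrower window was chosen after seeing the data. The wider one moves with the length limit, whose part was not tested.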

How the data were processed

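The deposited values are raw read counts, 1 table per library: a row states how often 1 fragment was read, its first and last position, length and sequence. Table titles name BLASTN and the mitochondrial stretch; its version and settings, and any trimming or collapsing, are not stated there or in the labels. Groups came from the table titles, and no table was tied to a single labelled replicate. Positions run over 2 joined copies of the 95 nt stretch. The 11 reads of the second copy were moved to the first, and 23 reads across the join were dropped. Listed reads numbered 4724 and 5456 in CSE libraries and 984 and 1427 in untreated ones.

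Members and measures were chosen with earlier results of these data known. Set shares have 95% Wilson intervals. Group differences were tested by exact permutation of the libraries, two-sided. Read counts per fragment were fitted with edgeR 4.0.16 over all fragments with at least 10 reads, with DESeq2 1.42.0 as alternative (R 4.3.3, SciPy 1.17.1). The edgeR fit used quasi-likelihood, listed reads as library size and Benjamini-Hochberg over all tested. Its SE was taken as the log2 ratio over the root of F. The fits were run on simulated data to see whether called changes had the simulated direction. That run did not measure power at the spread of these libraries. Reads carry no molecular identifiers here, so intervals cover counting error only. Named members are the 10 with the highest mean set share, the longest and shortest, those past the threshold and the 5 with the smallest p; 46 with 47 were paired afterwards.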

Additional observations from a re-analysis of the deposited data

How the results depend on the processing

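No paired analysis was possible because no table could be tied to a labelled replicate: the labels number both groups 1 and 2, while the tables number CSE libraries 3 and 4 and untreated libraries 1 and 2. Differences are CSE minus untreated. The higher set share of listed reads (4.04 to 5.89 points leaving out 1 library), the higher share of reads that reach base 95 (5.41 to 8.22), the lower share of the 5 most used rungs (-9.87 to -4.97) and of first base A (-5.30 to -1.70) kept their direction in all settings run, as did members of 31 to 50 nt (0.15 to 7.22). For set share, reach of base 95 and first base A the groups did not overlap. Leaving out 1 library could therefore not turn their direction, and only the size of the difference could move. The 5 most used rungs were picked again in each setting, by mean share over the libraries kept. Their difference thus carries the same picking each time, and the part of set size in it was not tested. The share that reaches base 95 pools many starts in each setting, and the part of the mix of starts in it was not tested.

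Other measures turned round, with the cause not tested. Leaving out 1 library, the median length differed by -3.50 to 0.50 nt, members over 50 nt by -3.02 to 0.136 points, members up to 30 nt by -4.21 to -0.283, first base C by -0.717 to 2.96, G by -1.41 to 1.80 and T by -1.88 to 6.26. With class limits at 35 and 55 nt, the shortest class differed by 1.16. Rungs used at equal reads (148 per library) differed by -0.0201, by -0.251 to 0.0192 leaving out 1 library, by 0.0680 with reads across the join kept, by 0.153 without 53 to 54 nt reads, and by 7 without thinning, where set sizes differ.

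The number of members called higher by edgeR was 0, but 1 with TMM factors, and 0 to 1 leaving out 1 library; members called lower were 0 in each setting. For the 17 named fragments the log2 ratio changed sign in 16 of 201 values, all from 48-95, 50-95, 56-95 and 60-95. Fragment 48-95 (-0.00355 in the fit reported) became 0.27 with TMM factors and 0.28 in DESeq2, and ran from -0.27 to 0.23 leaving out 1 library. Fragment 60-95 (-0.02) became 0.24 with TMM factors, 0.28 in DESeq2 and 0.013 with reads across the join kept, and ran from -0.45 to 0.82. Fragment 50-95 (0.04) became -0.34 with set reads as library size and -0.061 without 53 to 54 nt reads, and ran from -0.16 to 0.21. Fragment 56-95 (0.15) became -0.21 with set reads as library size, and ran from -0.20 to 0.52. Set sizes of 148 and 241 reads limit what untreated ladders can show.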

Other observations

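Reads that cross the join of the 2 copies, which pass base 95 and run on into the copy's first bases, were left out of the ladder. There were 9 in each CSE library, against 2 in untreated 1 and 3 in untreated 2, or 0.191% and 0.165% of listed reads against 0.203% and 0.210%. Of all 23, 13 ran 1 base past base 95, and the farthest ran 10 bases past it.

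Thinned to 148 reads, the size of the smallest set, each library held about the same number of different rungs: 33.9 and 34.0 were expected in CSE 3 and CSE 4, against 34 and 34.0 in untreated 1 and 2.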
